A study of Mus musculus with 6 samples.

Results

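The cyclic nucleotide phosphodiesterases described here were *Pde4b*, *Pde4d*, *Pde7b*, *Pde8a*, *Pde8b*, *Pde5a*, *Pde9a*, *Pde1a*, *Pde3a* and *Pde10a*, 10 of the 32285 genes and 10 of the 24 phosphodiesterase genes in the deposited matrices. They were followed in 2 classes of amygdala cells, chosen by UMIs (unique molecular identifiers, each a counted RNA molecule). A barcode was taken as an astrocyte with at least 20 UMIs of *Slc1a2* and *Slc1a3* together and at most 3 of *Vtn* and *Rgs5*, and as a pericyte with at least 10 UMIs of *Vtn* and *Rgs5* and at most 5 of *Slc1a2* and *Slc1a3*. Of 13546 barcodes, 8757 were astrocytes and 2260 were pericytes. The genes were picked with earlier results of these data known, so the tests between groups below are not independent evidence for the choice.

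Phosphodiesterases break the cyclic ring of cAMP or cGMP and so end the signal of these intracellular messengers, which adenylyl and guanylyl cyclases produce. The families differ in substrate: PDE4, PDE7 and PDE8 enzymes are specific for cAMP, PDE5 and PDE9 for cGMP, and PDE1, PDE3 and PDE10 enzymes hydrolyse both. In astrocytes, cAMP carries noradrenergic and other receptor signals, whereas in pericytes and other contractile cells of the vessel wall cGMP is best known as the messenger of nitric oxide and of relaxation.

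The series compared male wildtype C57BL/6N mice in 4 groups of 4 mice, distinguished by hashtag antibodies: not shocked (NoFC), fear conditioned (FC), conditioned but not recalled the next day (NoFR) and conditioned with recall the next day (FR). The labels give 90 min from the start of behaviour to the taking of the amygdala for every library. NoFR mice, however, stayed in the home cage on the day after conditioning, so they also differed from the other groups in the time since their last exposure to the chamber, and this cannot be told apart from the lack of recall. All tissue was dissociated with actinomycin D, triptolide and anisomycin, which block transcription and translation, and cells were sorted for ACSA-2, an epitope of the ATP1B2 protein. The labels call all cells astrocytes. The pericytes nevertheless expressed *Atp1b2*, the gene of the sorting epitope, at a level of 676 CPM (counts scaled to 1000000 gene UMIs), against 814 CPM in the astrocytes.

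The 3 libraries held 3631 to 5287 barcodes, 18 barcode sequences occurred in more than 1 library, and the median depth was 9891 UMIs per astrocyte and 5006 per pericyte. The classes were checked with markers that the gates did not use: *Gja1*, an astrocyte connexin gene, stood at 1575 CPM in astrocytes and 14.6 in pericytes, and *Abcc9*, a pericyte potassium channel subunit gene, at 0.67 and 1677 CPM. Of the pericyte markers listed, *Pdgfrb*, by which the study removed pericytes, was the highest in astrocytes. It stood there at 71.9 CPM, with a UMI in 47.3% of cells, and at 1738 CPM in pericytes. Smooth muscle genes reached 20 UMIs in 13 of the pericytes. A barcode was given to a mouse where its strongest hashtag had at least 10 UMIs and 3 times the next, which held for 1024 pericytes (45.3%) and for only 335 astrocytes (3.83%). Every mouse had 36 to 110 pericytes, whereas only 9 of 16 mice had at least 10 astrocytes, and comparisons of groups in astrocytes rest on these 9. Library 1 held mice 1 and 2 of every group, library 2 held no NoFR mouse and library 3 no FC mouse.

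The sequences upstream of the transcription starts are shown for the genes whose levels the results turn on: *Pde10a*, which differed most between groups, *Pde4d*, which also differed, *Pde7b*, which was high in the same astrocytes as *Pde10a*, and *Pde8a*, for its motif. RefSeq promoters on GRCm38.p6 were listed for 8 of the 10 genes, with 19 starts in all. Each sequence holds the 250 bases before a start, 5′ to 3′ on the strand of the gene, in lower case with the cAMP response element half-site (TGACG or, on the other strand, CGTCA) in capitals. The windows are chr17:8801495-8801744 (forward strand) and chr17:8849735-8849984 (forward) for the upstream and downstream starts of *Pde10a*, chr13:108653927-108654176 (forward) for *Pde4d*, chr10:20548329-20548578 (reverse) for *Pde7b* and chr7:81213015-81213264 (forward) for *Pde8a*.
Pde10a upstream start: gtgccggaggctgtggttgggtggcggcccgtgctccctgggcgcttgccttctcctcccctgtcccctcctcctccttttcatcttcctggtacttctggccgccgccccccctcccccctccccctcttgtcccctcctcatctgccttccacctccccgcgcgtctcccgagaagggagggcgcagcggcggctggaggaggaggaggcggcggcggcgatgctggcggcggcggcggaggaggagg
Pde10a downstream start: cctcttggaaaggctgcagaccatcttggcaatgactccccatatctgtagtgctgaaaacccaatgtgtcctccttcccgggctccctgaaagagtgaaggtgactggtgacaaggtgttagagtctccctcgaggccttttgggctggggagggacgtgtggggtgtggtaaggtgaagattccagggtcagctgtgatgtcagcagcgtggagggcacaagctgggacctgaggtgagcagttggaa
Pde4d: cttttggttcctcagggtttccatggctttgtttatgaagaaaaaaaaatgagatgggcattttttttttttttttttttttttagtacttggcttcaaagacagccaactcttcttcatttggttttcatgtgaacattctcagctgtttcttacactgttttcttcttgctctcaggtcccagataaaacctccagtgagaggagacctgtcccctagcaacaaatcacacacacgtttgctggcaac
Pde7b: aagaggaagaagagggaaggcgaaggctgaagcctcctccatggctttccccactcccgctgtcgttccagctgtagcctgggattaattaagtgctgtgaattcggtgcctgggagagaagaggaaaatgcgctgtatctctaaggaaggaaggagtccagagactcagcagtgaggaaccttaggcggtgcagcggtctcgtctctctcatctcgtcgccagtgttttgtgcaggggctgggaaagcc
Pde8a: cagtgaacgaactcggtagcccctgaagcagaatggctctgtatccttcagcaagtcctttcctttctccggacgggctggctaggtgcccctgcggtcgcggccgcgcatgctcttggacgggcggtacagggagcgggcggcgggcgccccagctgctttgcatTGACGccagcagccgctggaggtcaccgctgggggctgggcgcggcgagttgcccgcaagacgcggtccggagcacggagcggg

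The half-site, which CREB and related factors can bind, was found upstream of 3 of the 19 starts, against 17.8% of all 32851 promoters listed. They were the *Pde8a* start, where it began 84 bases before the start, 1 of 4 *Pde4b* starts and 1 of 4 *Pde1a* starts. Neither *Pde10a* start nor those shown for *Pde4d* and *Pde7b* held these letters in this window. The annotated spans of *Pde10a*, *Pde4d* and *Pde7b* reach further upstream, to 8525372, 108449948 and 20725078, where no start was listed. Which start these cells used was not tested. The *Pde10a* starts differed in base composition, with 72.8% G and C upstream of the first and 56.0% upstream of the other, and that of *Pde4d* had 38.8%, against a median of 52.4% over all promoters.

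Among the enzymes specific for cAMP, *Pde4d* and *Pde8b* were several times higher in pericytes and *Pde4b* was higher in astrocytes (plot of levels by library). Levels are CPM in each library, and folds are means over the 3 libraries. They are given without a test, because the cells were chosen by their counts and the genes with these levels known. *Pde4d* (ENSMUSG00000021699, chromosome 13, 108449948 to 109953461, forward strand of GRCm38), which encodes a PDE4 enzyme with many isoforms and anchoring partners, stood at 277, 292 and 271 CPM in the astrocytes of libraries 1 to 3 and at 1574, 1597 and 1649 in the pericytes. The log2 fold change was 2.52 ± 0.08 (SD, n = 3 libraries), a 5.73-fold higher level in pericytes. *Pde8b* (ENSMUSG00000021684, chromosome 13, 95024454 to 95250336, reverse strand), one of the PDE8 enzymes with high affinity for cAMP, stood at 296, 312 and 288 CPM in astrocytes and 1974, 2097 and 2075 in pericytes, 6.86-fold higher (log2 2.78 ± 0.06, n = 3). The libraries of a class lay close together for these genes and the classes did not overlap.

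*Pde8a* (ENSMUSG00000025584, chromosome 7, 81213596 to 81334533, forward strand), the other PDE8 gene, was 4.92-fold higher in pericytes, with 78.8, 90.2 and 85.4 CPM against 17.9, 17.1 and 16.6 in astrocytes. *Pde4b* (ENSMUSG00000028525, chromosome 4, 102087543 to 102607259, forward strand), a PDE4 gene known for its part in inflammatory and neural cAMP signalling, went the other way, with 297, 299 and 308 CPM in astrocytes and 125, 127 and 152 in pericytes, a 2.24-fold higher level in astrocytes. *Pde7b* (ENSMUSG00000019990, chromosome 10, 20398004 to 20725078, reverse strand), a cAMP-specific gene best known from the striatum, differed least, with 371, 467 and 365 CPM in astrocytes and 316, 323 and 314 in pericytes. Its level in astrocytes was higher in all 3 libraries but by only 1.26-fold, and library 2 stood above the others.

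The cGMP-specific genes divided between the classes. *Pde5a* (ENSMUSG00000053965, chromosome 3, 122728947 to 122859374, forward strand), the target of sildenafil and a vascular cGMP hydrolase, stood at 449.8, 454 and 466 CPM in pericytes and at 0.88, 0.77 and 0.86 in astrocytes. *Pde9a* (ENSMUSG00000041119, chromosome 17, 31386210 to 31476310, forward strand), a hydrolase with high affinity for cGMP, stood at 42.1, 44.0 and 44.1 CPM in astrocytes and at 3.62, 1.70 and 4.03 in pericytes, where only 37 UMIs were counted. The 3 libraries gave the same direction for each gene.

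Of the enzymes that hydrolyse both nucleotides, *Pde1a* and *Pde3a* were high in pericytes and near 0 in astrocytes. *Pde3a* (ENSMUSG00000041741, chromosome 6, 141249269 to 141507448, forward strand), a cAMP hydrolase that cGMP inhibits, stood at 256, 273 and 291 CPM in pericytes and at 0.47, 0.44 and 0.58 in astrocytes. *Pde1a* (ENSMUSG00000059173, chromosome 2, 79834453 to 80129458, reverse strand), which calcium and calmodulin stimulate, stood at 161, 142 and 159 CPM in pericytes and at 1.43, 0.44 and 0.90 in astrocytes. *Pde10a* (ENSMUSG00000023868, chromosome 17, 8525372 to 8986648, forward strand), a dual hydrolase best known from striatal neurons, stood at 151, 250.1 and 99.7 CPM in astrocytes and at 74.9, 105 and 78.4 in pericytes. Its astrocyte libraries lay further apart than those of the other genes above 10 CPM. Its mean log2 fold change of −0.87 ± 0.47 turned to 0.72 when only the barcodes given to a mouse were used. That sign came from library 3, where the astrocytes of mice NoFR 3 and FR 4 held 2 and 1 *Pde10a* UMIs. In libraries 1 and 2 the gene stayed higher in astrocytes.

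**Figure D1:**
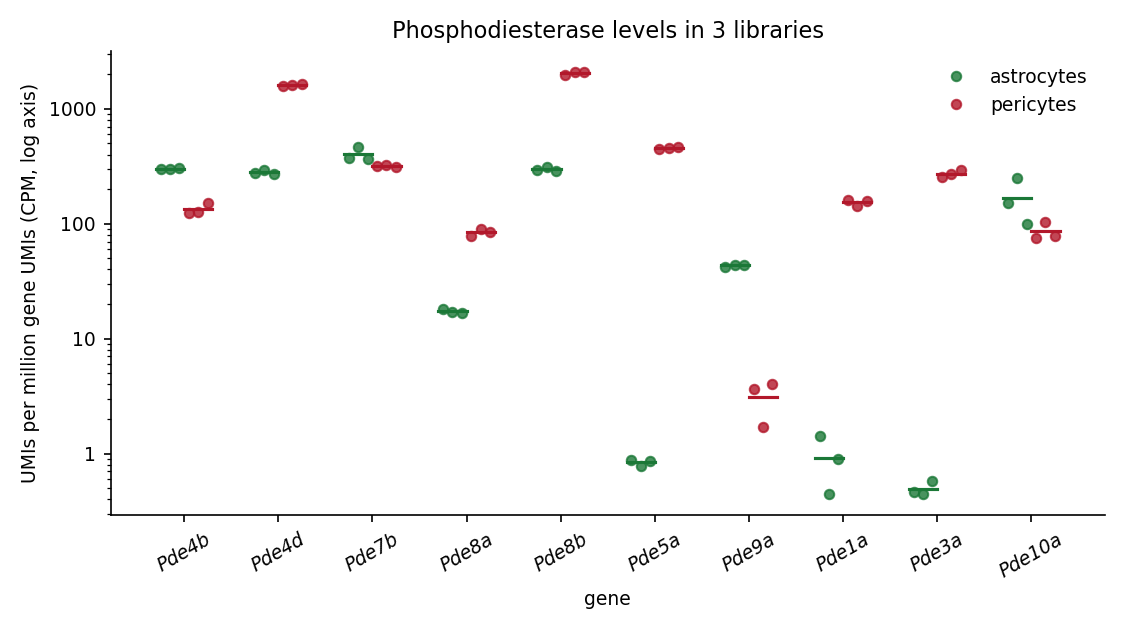
Level of each phosphodiesterase gene in astrocytes (green) and pericytes (red) in CPM on a log axis, with a point for each of 3 libraries and a line at their mean. *Pde4d*, *Pde8a*, *Pde8b*, *Pde5a*, *Pde1a* and *Pde3a* lie higher in pericytes, and *Pde4b*, *Pde7b*, *Pde9a* and *Pde10a* in astrocytes.

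In shares of cells, *Pde8b* was found in 98.8% of pericytes and 80.3% of astrocytes, *Pde4d* in 95.4% and 73.8%, *Pde5a* in 82.8% and 0.594%, and *Pde3a* in 54.8% and 0.434%. Astrocytes were the deeper cells, which raises their shares. With each cell thinned to 2000 UMIs, which kept 8476 astrocytes and 2213 pericytes, *Pde8b* was found in 94.8% of pericytes and 40.2% of astrocytes, and *Pde4d* in 86.9% and 37.7%. *Pde9a* was found in 32.3% of astrocytes (8.80% thinned) and in few pericytes (0.497% thinned). In astrocytes, the low shares of *Pde5a*, *Pde3a* and *Pde1a* (0.651%) stood beside 0.697% for *Abcc9* and 0.514% for *Kcnj8*, a further pericyte channel gene. Whether such rare UMIs came from the cells themselves or from free RNA was not tested. A gene on the opposite strand overlaps *Pde5a*, *Pde3a*, *Pde8b*, *Pde9a* and *Pde10a*, and the counting is not stated to use strand. The highest of these in pericytes, 4930447N08Rik within *Pde5a*, stood at 26.5 CPM.

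Near the cuts of the gates, *Pde8b* differed little between cells just inside and barcodes just outside, whereas some other genes differed more. In the 411 astrocytes just inside theirs (20 to 29 UMIs of *Slc1a2* and *Slc1a3*) *Pde8b* stood at 203 CPM and *Pde5a* at 1.84, and in the 919 barcodes just outside (10 to 19 UMIs) at 206 and 8.43 CPM. In the 34 pericytes just inside (10 to 14 UMIs of *Vtn* and *Rgs5*) *Pde8b* stood at 3661 CPM and *Pde5a* at 420.1. The 54 barcodes just outside (5 to 9 UMIs) had 3133 and 497 CPM. Both of these *Pde8b* values lay above the levels of all pericytes in each library. Both values near the astrocyte cut lay below the levels of all astrocytes. *Pde4d* stood at 3025 and 2833 CPM inside and outside the pericyte cut, and at 229 and 189 at the astrocyte cut. *Pde10a* stood at 132 CPM in these 34 pericytes and at 253 in the 54 barcodes (11 and 32 UMIs). *Pde4b* stood at 249 CPM in the 411 astrocytes and at 159 in the 919 barcodes. The 1742 barcodes in neither class with under 1000 UMIs had 319 CPM of *Pde8b*, 42.6 of *Pde5a* and 168 of *Pde10a*.

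Together the 10 genes made up 1511 ± 152 CPM in astrocytes (SD, n = 3 libraries) and 5166 ± 136 CPM in pericytes, which was 90.2% and 94.1% of the UMIs of all 24 phosphodiesterase genes. Of the 10, 6 were higher in pericytes in all 3 libraries and 4 in astrocytes, beside 54.5% and 36.3% of the 10730 genes at 10 CPM or more. Of the other phosphodiesterase genes, 8 reached 10 CPM, 6 of them higher in pericytes. *Pde2a*, whose enzyme cGMP stimulates, stood at 93.0 CPM in pericytes and 1.16 in astrocytes, and *Pde4c* at 89.2 and 0.212. *Pde1b* (13.6 and 1.18 CPM), *Pde3b* (24.9 and 6.44), *Pde4a* (16.1 and 10.0) and *Pde6d* (46.0 and 37.4) were also higher in pericytes. *Pde1c* (9.82 and 63.6 CPM) and *Pde7a* (24.8 and 41.1) were higher in astrocytes.

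The genes that make and read cyclic nucleotides were also compared between the classes. Of all 10730 genes at 10 CPM or more, 54.5% were higher in pericytes in all 3 libraries. Of 10 cyclase genes at 10 CPM or more, 7 were higher in pericytes, among them the soluble guanylyl cyclase subunits that sense nitric oxide: *Gucy1b1* with 1042 CPM in pericytes and 34.3 in astrocytes, *Gucy1a2* with 944 and 66.6, and *Gucy1a1* with 634 and 40.3. Of 12 effector genes, 10 were higher in pericytes. *Prkg1*, the cGMP-dependent protein kinase of contractile cells, stood at 2141 CPM in pericytes and 5.29 in astrocytes, *Rapgef4*, a cAMP-activated exchange factor, at 344 and 1.71, and *Prkar1a*, a regulatory subunit of protein kinase A, at 511 and 107. Of 11 anchor and receptor genes 5 were higher in pericytes, with *Akap12* at 463 and 1.41 CPM, *Akap13* at 235 and 83.8 and *Akap9* at 204 and 255.

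*Pde10a* was concentrated in few astrocytes. It had 0 UMIs in 6785 astrocytes (77.5%), 1 to 9 in 1496 (17.1%) and 10 or more in 476 (5.44%), and these 476 cells held 68.6% of its 15061 UMIs. The cells with 10 or more UMIs made up 5.48%, 8.07% and 2.93% of the astrocytes of libraries 1 to 3 and were deeper, with a median of 12354.5 UMIs against 9654 in the cells with none. In thinned astrocytes the variance of its UMIs was 4.37 times the mean. In pericytes it was 1.91 times the mean, and the 102 cells with 3 or more UMIs (4.51%) held 56.0% of the UMIs.

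The astrocytes rich in *Pde10a* were also rich in *Pde7b* (plot of astrocytes grouped by their *Pde10a* UMIs). This grouping was made after the values were seen and is given with no test. *Pde7b* stood at 1009 ± 90.8 CPM (SD, n = 3 libraries) in the cells with 10 or more *Pde10a* UMIs, at 493 ± 21.3 in those with 1 to 9 and at 323 ± 34.9 in those with 0, a 3.13 ± 0.163-fold difference between the outer groups that all 3 libraries showed. *Pde4d* stood at 482 ± 56.2 and 260.2 ± 5.60 CPM in the outer groups, 1.85 ± 0.255-fold higher, while *Pde4b* (1.05-fold), *Pde8b* (1.16-fold) and *Pde9a* (1.12-fold) differed little. Of 3719 genes with at least 50 CPM in either group, *Pde7b* had the largest log2 difference among those higher in the *Pde10a*-rich astrocytes (1.64 ± 0.07), followed by *Hdac4* (1.52 ± 0.13), a histone deacetylase gene, and *Zswim6* (1.52 ± 0.15). Lower in the *Pde10a*-rich astrocytes were *Stmn1* (−1.83 ± 0.32), a microtubule regulator, *Gria1* (−1.68 ± 0.55), a glutamate receptor subunit, and *Tmsb4x* (−1.67 ± 0.20), an actin-binding peptide gene.

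**Figure D2:**
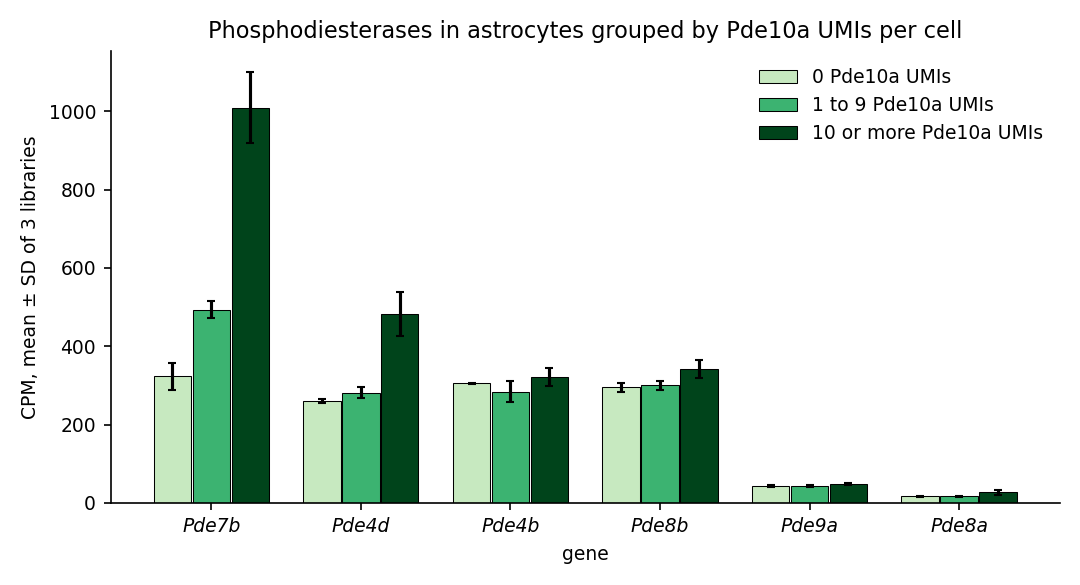
CPM of 6 phosphodiesterase genes (mean and SD of 3 libraries) in astrocytes with 0, 1 to 9, or 10 or more *Pde10a* UMIs. *Pde7b* stands at 323, 493 and 1009 CPM in these groups, while *Pde4b* and *Pde8b* lie between 284 and 342 CPM in all of them.

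In pericytes *Pde3a*, not *Pde7b*, was higher in the cells rich in *Pde10a*. Cells with 3 or more *Pde10a* UMIs had 466 ± 51.1 CPM of *Pde3a*, against 265 ± 19.4 in cells with none, a 1.75 ± 0.0802-fold difference, and *Pde8a* stood at 120.4 and 82.9 CPM. *Pde7b* differed by 1.09-fold there. These cells were also deeper, with a median of 5819 against 4955 UMIs.

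The other phosphodiesterases differed between subsets of astrocytes, which were set by genes chosen with earlier results of these data known. The 1656 astrocytes with at least 2 UMIs of *Igfbp2*, a binding protein gene for insulin-like growth factors, had less *Pde4d* (190.0 CPM against 308 in the other astrocytes), less *Pde7b* (290.3 against 435) and more *Pde8a* (25.7 against 14.6) in all 3 libraries. The 4385 astrocytes with at least 2 UMIs of *Agt*, the angiotensinogen gene, had more *Pde4d* (314 against 243 CPM) and less *Pde8a* (14.5 against 20.5). In the 4061 astrocytes with *Gli2* and *Kcnma1*, *Pde4b*, *Pde4d*, *Pde7b*, *Pde8a*, *Pde8b* and *Pde9a* were 1.24 to 1.43-fold higher, but these cells were also deeper (median 11562 against 8584 UMIs). The *Igfbp2* and *Agt* subsets were deeper too, with medians of 12463 against 9312 and 10347 against 9324 UMIs. The part of depth was not tested for any subset.

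The next question was whether these genes differed between the behavioural groups in the pericytes of each mouse. UMIs were summed per mouse and tested with edgeR's quasi-likelihood test in a model that held the sequencing library, with Benjamini-Hochberg adjusted p-values over all genes tested. Single genes also had a 2-sided exact permutation test over mice, unadjusted, for which 0.0286 is the smallest p that 4 mice against 4 allow. This test took no account of the library. Mice FC 3 and FC 4 were in library 2, and NoFR 3 and NoFR 4 in library 3. For NoFR against FC, the exact p and the overlap of groups therefore do not separate library from group. Over 6543 genes, 70 passed an adjusted p of 0.05 between NoFR and NoFC (1.07%), 29 between NoFR and FC (0.443%), 6 between FR and NoFR (0.0917%), and 0 (0%) in the pairs FC and NoFC, FR and NoFC, and FR and FC, where 299, 419 and 315 genes had an unadjusted p under 0.05 and DESeq2 also called 0. Of the 9 genes with enough counts, *Pde10a* fell and *Pde4d* rose in NoFR against NoFC and *Pde10a* fell in NoFR against FC. *Pde9a* was not tested, at 0 to 11.2 CPM.

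*Pde10a* was lowest in the pericytes of NoFR mice (plot of levels in each mouse). Its level, in TMM-normalized CPM of mice 1 to 4, was 90.1, 97.6, 150.3 and 162 in NoFC, and 51.4, 103, 77.3 and 105 in FC. It was 22.4, 33.7, 17.4 and 31.1 in NoFR, and 33.8, 42.6, 135 and 71.3 in FR. On this scale every NoFR mouse lay below every mouse of the other groups, while NoFC, FC and FR overlapped. The highest NoFR mouse, NoFR 2 (33.7), lay only just below the lowest FR mouse, FR 1 (33.8). Both held 6 *Pde10a* UMIs, in 187654 gene UMIs for NoFR 2 and 191242 for FR 1. Without TMM normalization NoFR 2 therefore lay above FR 1.

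**Figure D3:**
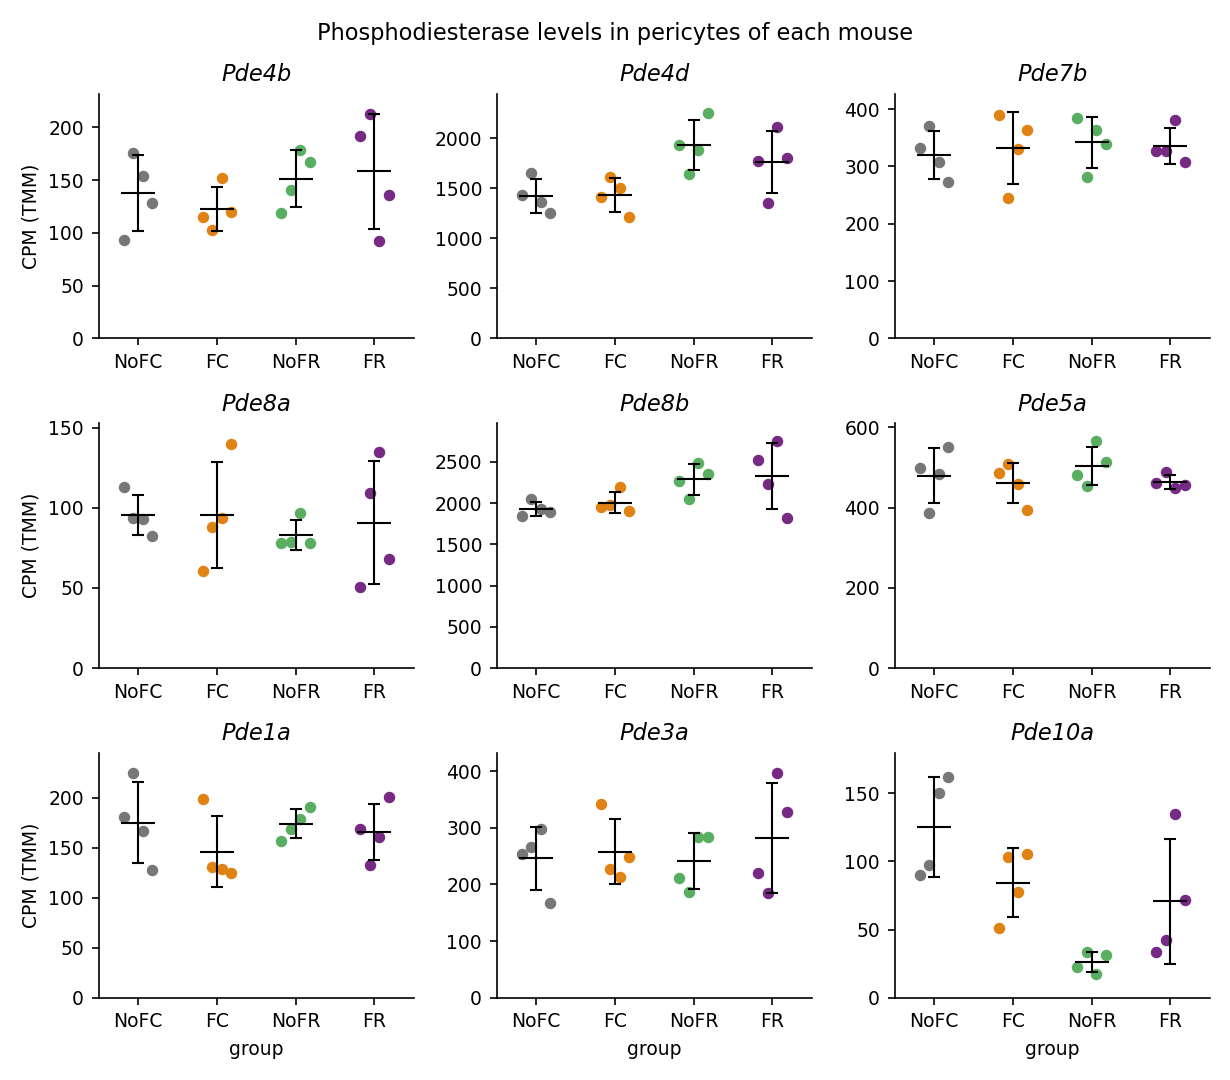
TMM-normalized CPM of 9 phosphodiesterase genes in the pericytes of each of 16 mice, with a point for each mouse and the mean ± SD of the 4 mice of a group. *Pde10a* lies between 17.4 and 33.7 CPM in the NoFR mice and between 90.1 and 162 in the NoFC mice, and *Pde4d* is higher in most NoFR and FR mice.

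The mean was 26.2 ± 7.60 CPM (SD, n = 4 mice) in NoFR, against 125 ± 36.4 for NoFC, 84.1 ± 25.2 for FC and 70.8 ± 46.0 for FR. From NoFC to NoFR *Pde10a* fell by 2.30 on the log2 scale (SE 0.32), to a 4.91-fold lower level, with an adjusted p of 2.72e-06 by edgeR's quasi-likelihood test and an exact permutation p of 0.0286. From FC to NoFR it fell by 1.72 (SE 0.36), 3.30-fold, with an adjusted p of 0.00696 by edgeR and the same exact permutation p. This call was lost without mouse FC 2 (adjusted p 0.177), NoFR 3 (0.0878) or NoFC 4 (0.0822) and with DESeq2 (0.0706) or weaker hashtags admitted (0.0687). The log2 fold change of FR over NoFR was 1.53 (SE 0.36) with an adjusted p of 0.0802 by edgeR. These groups did not overlap in TMM-normalized CPM. It passed without mouse FR 1 (0.0473), with no filter on low counts (1.52, 0.00948) and with no library term (1.61, 0.0401), and DESeq2 gave 1.43 (0.385). The remaining log2 fold changes were −0.58 (SE 0.23) for FC over NoFC, −0.77 (SE 0.24) for FR over NoFC and −0.19 (SE 0.27) for FR over FC, with adjusted p-values of 0.999, 0.429 and 0.994 by edgeR. The comparisons share groups and are not independent.

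The counts behind these levels were small. The 4 NoFR mice had 6, 6, 7 and 8 *Pde10a* UMIs in 230 pericytes, and the NoFC mice 32, 26, 89 and 53 in 302. A *Pde10a* UMI was found in 5 of 59, 5 of 38, 7 of 83 and 7 of 50 pericytes of NoFR mice 1 to 4. The share was 22.2% to 30.0% in NoFC mice, 17.8% to 24.8% in FC mice and 11.1% to 24.1% in FR mice. The share was lower in every NoFR than in every NoFC or FC mouse, each with an exact permutation p of 0.0286, also with the cells thinned to 2000 UMIs, whereas FR and NoFR shares overlapped (exact permutation p 0.257). The thinned share of *Pde10a* was also lower in FR than in NoFC mice (exact permutation p 0.0286). Among the other genes, 2 had an exact permutation p of 0.0286 for a share. They were *Pde5a*, higher in NoFR than in NoFC mice (thinned 0.600), and *Pde3a*, higher in FC than in NoFC mice when thinned (not thinned 0.314). In mouse FR 3 a single cell held 24 of 38 UMIs. An alternative added after seeing the data left out the cell of each mouse with the most *Pde10a* UMIs. Its CPM were not TMM-normalized, unlike the means above. FR then stood at 38.1 ± 16.5 CPM against 18.2 ± 4.59 in NoFR (exact permutation p 0.0857, with overlap). The difference between NoFR and NoFC was −2.31 on the log2 scale (exact permutation p 0.0286). FR and NoFC mice then no longer overlapped (−1.35, exact permutation p 0.0286).

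Within library 1, the only library with mice of every group, *Pde10a* fell by 1.78 on the log2 scale from NoFC to NoFR (adjusted p 0.0307 by edgeR on the mice of that library), the log2 fold change of NoFR over FC was −1.56 (0.0956) and that of FR over NoFR was 0.51 (0.951). In library 2, which holds no NoFR mouse, the level was 77.3 to 150.3 CPM. In library 3 the NoFC mouse had 162 CPM, the FR mouse 71.3 and the NoFR mice 17.4 and 31.1. Median depth was 4566 to 5178 UMIs per pericyte in NoFR mice and 5033 to 5549 in NoFC mice. The summed level of the 9 astrocyte markers in pericytes was 979.8 to 1057 CPM in NoFR, 861 to 961 in NoFC, 856 to 1010.5 in FC and 816 to 1015 in FR mice. That of the 3 smooth muscle genes spread from 53.3 to 593 CPM in NoFR and from 132 to 492 in NoFC mice. Over all pericytes, *Atp1b2* made up 676 of the 930 CPM of the astrocyte marker sum, so that sum does not measure astrocyte RNA alone. Depth was held equal only for the thinned share above. Its part in the level, and the part of astrocyte RNA, were not tested. Without the cells rich in smooth muscle genes, the log2 fold change of NoFR over NoFC was −2.28. Fewer transcripts per cell and fewer cells with the transcript cannot be told apart at these counts.

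*Pde4d* was somewhat higher in NoFR pericytes and, without a call, in FR pericytes. Its level in mice 1 to 4 was 1431, 1651, 1366 and 1250.3 CPM in NoFC, and 1411, 1616, 1500 and 1212 in FC. It was 1935, 1648, 1882 and 2257 in NoFR, and 1775, 1354, 2113 and 1804 in FR. NoFR mice lay above all FC mice, and 1 NoFR mouse (1648) lay just below the highest NoFC mouse. The log2 fold changes of FR were 0.31 (SE 0.11) over NoFC, 0.29 (SE 0.11) over FC and −0.13 (SE 0.11) over NoFR. Their adjusted p-values by edgeR were 0.526, 0.911 and 0.926.

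The means were 1930.4 ± 251 CPM (SD, n = 4 mice) in NoFR and 1425 ± 168 in NoFC, a log2 fold change of 0.44 (SE 0.11), 1.36-fold, with an adjusted p of 0.0316 by edgeR and an exact permutation p of 0.0571. Against FC (1435 ± 171) the log2 fold change was 0.42 (SE 0.13, adjusted p 0.157 by edgeR, exact permutation p 0.0286). The call against NoFC was lost without any of 7 mice in turn, namely NoFC 1 (adjusted p 0.0520), NoFC 3 (0.116), NoFC 4 (0.448), NoFR 1 (0.139), NoFR 3 (0.0521), NoFR 4 (0.155) or FR 3 (0.0759). DESeq2 gave 0.45 with an adjusted p of 0.0878, and within library 1 the value was 0.22 (0.803). The fall of *Pde10a* from NoFC to NoFR was called without each of the 16 mice in turn. Between NoFR and FC, *Pde4d* passed where weaker hashtags were admitted (0.45, adjusted p 0.0213 by edgeR) and with HTODemux calls (0.48, 0.0147), and also with no filter on low counts (0.41, 0.0403) and with no library term (0.42, 0.0363).

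*Pde8b* differed in the same direction as *Pde4d* but did not pass. Its level in mice 1 to 4 was 1839, 2049, 1934 and 1892 CPM in NoFC and 1948, 1973, 2191 and 1910.2 in FC. It was 2266, 2047, 2481 and 2355 in NoFR and 2519, 2226, 2754 and 1820.5 in FR. It was 0.30 (SE 0.10) higher on the log2 scale in NoFR than in NoFC and 0.27 (SE 0.095) higher in FR than in NoFC, with adjusted p-values of 0.191 and 0.535 by edgeR. The groups overlapped.

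The remaining tested genes, *Pde4b*, *Pde7b*, *Pde8a*, *Pde5a*, *Pde1a* and *Pde3a*, had log2 fold changes between −0.23 and 0.31 over all 6 comparisons, and none passed (plot of fold changes). *Pde5a* stood at 480.0 ± 68.4 CPM (SD, n = 4 mice) for NoFC, 462 ± 49.7 for FC, 504 ± 48.1 for NoFR and 464 ± 16.8 for FR. *Pde7b* had group means between 321 and 342 CPM, *Pde1a* between 146 and 175, *Pde4b* between 122 and 158 and *Pde8a* between 82.9 and 95.5. *Pde3a* ranged from 185 to 396 CPM within the FR mice alone. A p that misses the threshold does not show that these levels were equal.

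**Figure D4:**
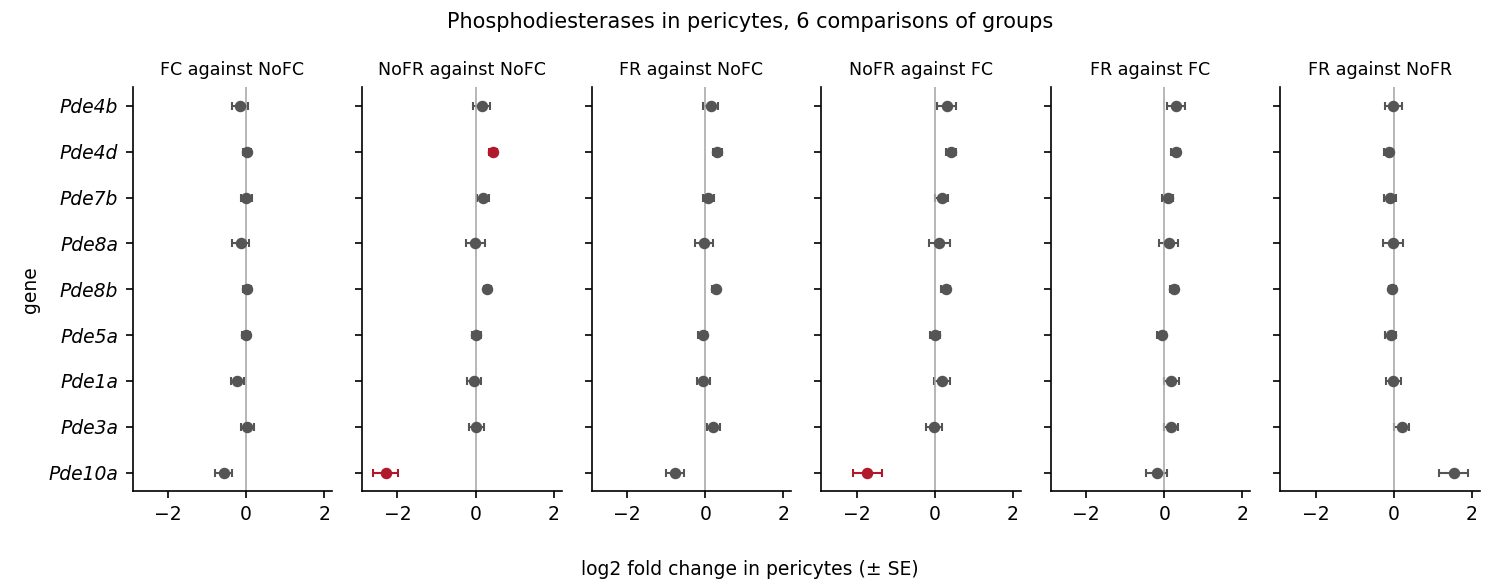
Log2 fold change ± SE of 9 phosphodiesterase genes in pericytes for the 6 pairs of groups (edgeR's quasi-likelihood fit, 16 mice), with red points for an adjusted p under 0.05. The red points are *Pde10a* (−2.30) and *Pde4d* (0.44) in NoFR against NoFC and *Pde10a* (−1.72) in NoFR against FC.

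In TMM-normalized CPM, groups of 4 mice did not overlap for 1 of the 9 genes between NoFR and NoFC (*Pde10a*, beside 4.91% of all genes tested). Between NoFR and FC they did not overlap for 2 (*Pde4d* higher and *Pde10a* lower, beside 4.62%). Between FR and NoFR they did not overlap for 1 (*Pde10a* higher, beside 3.56%). The median log2 fold change of the 9 genes for NoFR against NoFC was 0.018, beside −0.0021 over all genes, with *Pde10a* and *Pde4d* called in opposite directions.

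The genes that make and read cyclic nucleotides showed no call in pericytes in any of the 6 pairs. Between NoFR and NoFC, 0 of 4 other phosphodiesterase, 0 of 7 cyclase, 0 of 12 effector and 0 of 7 anchor and receptor genes tested passed, with unadjusted p-values under 0.05 for 0, 3, 1 and 0 of them, beside 562 of all 6543 genes tested. The leading ones were *Adcy6*, a calcium-inhibited adenylyl cyclase gene, at 0.63 (SE 0.20, adjusted p 0.147 by edgeR), and *Prkg1* at 0.25 (SE 0.093, adjusted p 0.310).

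In astrocytes the groups rested on 9 mice with at least 10 cells, namely NoFC 1 and 3, FC 1 and 2, NoFR 1 to 3, and FR 3 and 4. Of 3070 genes, 2 passed between FC and NoFC (0.0651%), 3 between NoFR and NoFC (0.0977%), 1 between FR and NoFC (0.0326%) and 0 (0%) in the other 3 pairs, where 88, 95 and 140 genes had an unadjusted p under 0.05 and DESeq2 called 0. The 5 phosphodiesterase genes with enough counts, *Pde4b*, *Pde4d*, *Pde7b*, *Pde8b* and *Pde10a*, had no call, which with 2 or 3 mice a group does not show that their levels were equal. *Pde4b* ranged from 308 to 582 CPM over these mice, *Pde4d* from 191 to 405, *Pde7b* from 301 to 689.7 and *Pde8b* from 256 to 558.

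*Pde10a* in astrocytes varied widely from mouse to mouse. It had 3 and 0 UMIs in NoFC 1 and 3, 155 and 35 in FC 1 and 2, 5, 1 and 2 in NoFR 1 to 3, and 70 and 1 in FR 3 and 4. In CPM these were 40.1 and 0, 98.7 and 301, 49.4, 9.81 and 22.3, and 187 and 8.32. The astrocytes behind them numbered 10 and 16, 159 and 14, 15, 12 and 14, and 46 and 16 in the same order. Since few astrocytes held most *Pde10a* UMIs, 1 or a few cells may set a mouse's level, which was not tested. Both FC mice lay above the NoFC and the NoFR mice, and the FR mice overlapped every group. The log2 fold change of NoFR over FC was −2.10 (SE 0.74, adjusted p 0.999 by edgeR). It was negative under every alternative in which the gene could be tested, and passed with the study's filters on cells (−2.25, 0.0217) and without NoFR 3. It did not pass with weaker hashtags or HTODemux calls, which gave more astrocytes to mice. Within library 1 it was −2.37, and without any of NoFC 1, NoFC 3, NoFR 3, FR 3 or FR 4 it was −2.36 to −2.31. Apart from the fit without NoFR 3, these fits left 1 mouse in a group, so only their log2 fold changes are given. The other pairs changed direction under some alternatives or, for FC against NoFC, ranged from 1.90 to 12.57 as 1 mouse was left out.

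The difference between the classes was tested with the mouse as a block over the same 9 mice. The log2 change of *Pde10a* from NoFC to FC was 4.00 higher in astrocytes than in pericytes (SE 0.78, adjusted p 0.00228 by edgeR). It was the single gene of 8160 called in that pair (0.0123%). Between FR and NoFC 1 gene was called (0.0123%), not a phosphodiesterase, and in the other 4 pairs 0 (0%), with 365, 263, 217 and 278 genes at an unadjusted p under 0.05. The value rests on 3 *Pde10a* UMIs in the astrocytes of 2 NoFC mice. Without the block it was 3.63 with an adjusted p of 0.319, and it was not called without NoFC 3 (2.48, adjusted p 1.000) or FC 2 (3.73, 0.599).

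Over 9 points, the astrocytes, the pericytes and the shallow barcodes in neither class of each library, the profiles of *Pde4d* and *Pde8b* were most like each other (Pearson's r = 0.999 of log2(CPM + 1)), and so were those of *Pde7b* and *Pde10a* (0.967). The points share libraries and fall into classes, so these values are descriptions. *Pde4d* was next most like *A630012P03Rik* and *Stk24*, *Pde8b* like *Nck2* and *A630012P03Rik*, and *Pde7b* like *Ptprg* (0.889) and *Foxo3* (0.888). *Pde10a* was next most like *Camk1d* (0.929) and *Fkbp5* (0.912), a gene induced by glucocorticoids. *Pde3a* was most like *Ndst3*, *Pla2r1* and *Ets1*, and *Pde1a* like *Airn*, *Akap12* and *Uaca*. *Pde4b* was most like *Hbegf*, *Akr1b10* and *Gm15952*, *Pde8a* like *Rpl36*, *Zbtb43* and *Sptssa*, and *Pde9a* like *Nxpe4*, *Zfp423* and *Brsk2*.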

How the data were processed

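Amygdala cells of 16 mice were sequenced in 3 libraries of gene expression with hashtags. The deposited matrices hold the authors' raw counts of UMIs for each gene and hashtag of a barcode. The labels name Cell Ranger 3.0 and mm10, whereas the matrix headers name Cell Ranger 7.0.0. There were 0 columns of no sample. Levels are CPM of the summed UMIs of a class in a library. For groups, counts were summed per class and mouse, mice with at least 10 cells were kept, and genes passing edgeR's filter on low counts were tested with edgeR 4.0.16 (R 4.3.3; quasi-likelihood test, TMM normalization, library as a covariate, all groups in 1 fit). The difference between classes was tested with the mouse as a block. The p-values measure the spread between these mice. Single genes had 2-sided exact permutation tests of log2(CPM + 1), without the library and unadjusted over 54 comparisons of 9 genes. The share of cells with a UMI and the thinned share were tested likewise in the same comparisons, also unadjusted. The fits were tested on simulated data with 200 changed genes. Alternatives were other scaling, DESeq2 1.42.0, filters, hashtag calls (also Seurat 5.3.0 HTODemux), gates, thinning, library 1 alone and leaving out each mouse. No doublet caller was run, and the gates leave out barcodes high in both classes (101).

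The genes, lists and astrocyte subsets were chosen with earlier results of these data known. All 10 genes are named, other phosphodiesterase genes at 10 CPM or more in a class, the 3 genes of highest CPM of each further list with any called, and the 3 genes most like each member, except for *Pde5a*, for which this result is not reported here. *Adcy6* and the genes compared between astrocytes rich and poor in *Pde10a* were chosen after their values were seen. Promoters are from RefSeq (GRCm38.p6), and gene positions from GENCODE on GRCm38, to which mm10 corresponds.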

Additional observations from a re-analysis of the deposited data

Results flagged for a closer look

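In the pericytes of groups of 4 mice, a mouse far from the other mice of its group was found in 2 of 40 groups examined, and chance gives about 1 in 20. *Pde8a* stood at 97.0 CPM in mouse NoFR 3, against 77.8 to 78.7 in the other NoFR mice. *Pde1a* stood at 199 CPM in mouse FC 1, against 125 to 131 in the other FC mice. Neither gene was called in any comparison.

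The change of *Pde10a* from NoFC to FC differed between astrocytes and pericytes by 4.00 on the log2 scale (SE 0.78, adjusted p 0.00228 by edgeR's quasi-likelihood test with the mouse as a block). In pericytes the log2 fold change was −0.58 in the fit of all 16 mice, whereas the test of the difference used 9 mice. In the astrocytes of 2 NoFC mice the gene had 3 and 0 UMIs and in those of 2 FC mice 155 and 35, so the size of the difference depends on counts near 0. The part of the few astrocytes that could be given to a mouse was not tested.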

How the results depend on the processing

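Of 556 alternative values, 457 stayed the same, 62 moved, 21 reversed, 9 newly passed and 7 no longer passed. These counts leave out the values without 1 mouse or 1 library, which are given as ranges or singly. For fold changes, the same meant an unchanged direction and side of the threshold. For counts of called genes it meant a count near the main one, and for class levels a value within the SD of the libraries. The cause was not tested unless said. In pericytes, the fall of *Pde10a* from NoFC to NoFR passed under every alternative (−2.49 to −1.96 without 1 mouse). Calls for NoFR against FC and for *Pde4d* did not.

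Genes called in pericytes numbered, with no filter on low counts, 8 for FC and NoFC, 10 for FR and NoFC, 55 for NoFR and FC, 2 for FR and FC and 17 for FR and NoFR. Within library 1, with 2 mice a group, they were 9 (FC and NoFC), 26 (NoFR and NoFC), 9 (FR and NoFC) and 18 (NoFR and FC). DESeq2 gave 39 for NoFR and NoFC and 17 for NoFR and FC. Weaker hashtags (5 UMIs, 2 times the next) gave 2 for FR and NoFC, 45 for NoFR and FC and 10 for FR and NoFR. HTODemux gave 2 for FR and NoFC and 2 for FR and NoFR, no library term gave 45 for NoFR and FC and 10 for FR and NoFR, and leaving out cells rich in smooth muscle genes gave 4 for FR and NoFC. Without 1 mouse the counts ranged from 0 to 1 (FC and NoFC), 25 to 77 (NoFR and NoFC), 0 to 4 (FR and NoFC), 14 to 40 (NoFR and FC), 0 to 3 (FR and FC) and 3 to 13 (FR and NoFR).

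In astrocytes, DESeq2 called 1 gene for FC and NoFC and 0 for NoFR and NoFC and for FR and NoFC. No library term gave 1 and 1 for the first 2 pairs. Weaker hashtags gave 0 for all 3, HTODemux 0 for the first 2, and no minimum of cells, added after seeing the data, 0 for all 3. Within library 1, which here has no FR mouse and 1 NoFC mouse, assumed to vary like the other groups, there were 5, 5 and, for NoFR and FC, 7. No filter gave 2 for FR and NoFC and 2 for NoFR and FC. The study's filters, which left no NoFC mouse, gave 9 for NoFR and FC, 32 for FR and FC and 52 for FR and NoFR. Without 1 mouse the counts ranged from 1 to 108, 1 to 181, 1 to 33, 0 to 8, 0 to 29 and 0 to 53 in the order of the pairs above. A minimum of 20 cells was not run, since too few mice remained.

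Same-numbered mice share a number only, so no replicate block was used between groups. The block by mouse applies to the difference between classes. With no replicate block that difference had 0 genes called for FC and NoFC and 0 for FR and NoFC, and *Pde10a* gave 3.63 (adjusted p 0.319 by edgeR). No filter gave 0 for FR and NoFC. Without 1 mouse 0 to 2, 0 to 5, 0 to 7, 0 to 0, 0 to 8 and 0 to 11 genes were called, in the same order.

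Log2 fold changes that reversed were near 0 in pericytes. *Pde4d* for FC and NoFC was −0.011 (weaker hashtags), −0.0041 (HTODemux) and −0.018 (library 1), and *Pde8b* was −0.027 and −0.003 (weaker hashtags, HTODemux). *Pde8b* for FR and NoFR was 0.020 with no library term and 0.13 in library 1. *Pde10a* in astrocytes reversed for NoFR and NoFC to −0.39 (weaker hashtags), −0.045 (HTODemux) and −0.41 (library 1), and for FR and NoFC to −0.44 and −0.26 (weaker hashtags, HTODemux). For FR and FC it reversed to −0.34 (DESeq2), −0.54 (no library term), −3.58 (the study's filters), −1.17 (weaker hashtags) and −1.13 (HTODemux), and for FR and NoFR to −1.33 (the study's filters), −0.052 (weaker hashtags) and −0.21 (HTODemux). Without 1 mouse, *Pde10a* in astrocytes ranged from −0.42 to 10.24 (NoFR and NoFC), −1.77 to 8.91 (FR and NoFC), −3.72 to 7.00 (FR and FC) and −1.36 to 9.33 (FR and NoFR), where a group at 0 UMIs makes the value depend on the prior count. In pericytes *Pde10a* ranged from −0.75 to 0.16 (FR and FC), *Pde4d* from −0.064 to 0.11 (FC and NoFC) and *Pde8b* from −0.042 to 0.058 (FC and NoFC) and −0.11 to 0.15 (FR and NoFR). The difference of *Pde10a* between classes ranged from −0.19 to 8.62 (FR and NoFC) and −3.17 to 0.56 (FR and NoFR).

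Between classes, the log2 level of pericytes over astrocytes was 2.62 for *Pde4d* with only barcodes given to a mouse and 2.44 when thinned, 2.12 for *Pde8a* and 2.61 for *Pde8b* with such barcodes, and for *Pde5a* 8.50 with such barcodes, 9.31 with stricter gates and 9.59 when thinned. The mean for *Pde10a* reversed to 0.72 with barcodes given to a mouse, through library 3 and not libraries 1 and 2. Depth limits *Pde10a*, with 27 UMIs in the pericytes of 4 NoFR mice and 3 in the astrocytes of 2 NoFC mice.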
